A study of Homo sapiens with 6 samples.

Results

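The hypoxia response and glycolysis genes were 41 genes chosen by name for their textbook role. Of these, 17 belong to the hypoxia-inducible factor (HIF) pathway and 24 to glucose uptake, glycolysis and the fate of pyruvate. The choice was made with earlier results of these data known. All 41 were present among the 61228 gene names of the deposited tables, and 39 had enough counts to be tested. They were compared between 3 libraries of cells given cockroach extract (CRE) and 3 libraries of cells given CRE and VAF347, a small-molecule agonist of the aryl hydrocarbon receptor (AhR) that the study added 1 h ahead of the extract. All were HBE cells of genotype WT (HBECs), an airway epithelial line that is immortalized and was grown in serum. The labels give no exposure time, and the study describes 24 h for these agents in this line. Every library therefore carried the allergen, and no hypoxic treatment is named for any of them. No untreated library and no library with VAF347 alone was analysed here, so the comparison shows only what the agonist added to CRE. Nothing in the labels says whether the replicates were separate cultures, so the p-values measure the spread between these libraries, which may be technical.

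HIF is a pair of proteins, an oxygen-regulated alpha subunit (HIF1A or EPAS1, also called HIF-2 alpha) and the constant partner ARNT. When oxygen is present, the EGLN prolyl hydroxylases mark the alpha subunit and VHL directs its destruction, so most of the oxygen control acts on the protein and not on the transcript. Stable HIF raises genes for blood vessel growth, acid handling, mitophagy and nearly every step of glycolysis. AhR, once bound by a ligand such as VAF347, also needs ARNT as its partner, and the DNA cores of the AhR and HIF pairs resemble each other.

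The libraries held 8873160 to 10750283 estimated counts, and the 41 genes took 1.19% to 1.33% of them. CRE replicate 3 stood apart from the other CRE libraries, since the chi-square of its counts against theirs averaged 9.21 and 8.96 over genes and that of the other replicate pairs 1.77 to 2.55. The AhR target *CYP1A1*, at 0.467 to 0.785 TMM-scaled counts per 1000000 (CPM) with CRE and 43.3 to 51.0 with VAF347, matched the labels in every library. Of the epithelial markers, *EPCAM*, *CDH1*, *KRT8*, *KRT18*, *KRT19* and *CLDN4* were abundant, and 2 of the 8 on the list, *KRT19* and *KRT17*, fell. At an unadjusted p under 0.05 were 4 of the 8 lower and 0 higher, and DESeq2 called 2 lower. *KRT5* was scarcer, with a mean of 15.9 CPM with CRE and 12.3 with VAF347. Its groups did not overlap, but it was not called (adjusted p = 0.0773). Of 7 fibroblast markers 2 were tested and 0 were called, with 0 at an unadjusted p under 0.05 and 0 by DESeq2. *COL1A1* had a mean of 40.3 CPM with CRE and 37.6 with VAF347, and *PDGFRB* had 1.44 and 1.18. *DCN*, *LUM* and *PDGFRA* had 0 counts in every library. Of 5 endothelial markers 3 were tested and 2 fell, *CDH5* from 17.6 to 9.86 and *VWF* from 3.29 to 1.20 mean CPM (1 of them called by DESeq2). *KDR*, the other one tested, was not called, at a mean CPM of 7.35 with CRE and 8.15 with VAF347. *PECAM1* and *TEK* had at most 3 counts in any library. The part of these markers in the results on hypoxia and glycolysis genes was not tested. In bulk libraries such as these, fewer cells of a type and less RNA per cell cannot be told apart. Of 6 leukocyte markers 2 were tested and 0 were called, with 1 at an unadjusted p under 0.05 and 0 by DESeq2. *CD68* had a mean of 25.7 CPM with CRE and 19.1 with VAF347, and *CD14* had 4.26 and 3.43. *PTPRC* and *CD3E* lay at or near 0. Beside these counts of markers, 4.07% of all genes tested were called lower and 1.35% higher.

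In all, 6 of the 39 tested genes fell with VAF347 and 0 rose, with edgeR (quasi-likelihood test, adjusted p under 0.05). Those that fell were the alpha subunit gene *EPAS1*, the secreted peptide gene *ADM*, the stress gene *NDRG1*, the glucose transporter gene *SLC2A3*, the glycolytic regulator gene *PFKFB3* and the aldolase gene *ALDOC*. Their share, 15.4%, stood beside 5.42% of all 15373 genes tested called in either direction, 4.07% called lower and 1.35% called higher. *ADM*, *NDRG1*, *SLC2A3* and *ALDOC* also passed an absolute log2 fold change of 0.5, beside 2.21% of all genes, 1.71% lower and 0.501% higher. For the higher direction, 1 member had an unadjusted p under 0.05, and DESeq2 and limma on TPM each called 0. The 3 VAF347 libraries lay below the 3 CRE libraries for 19 members and above them for 3, beside 27.3% of all genes without overlap, 14.8% lower and 12.5% higher. The median log2 fold change was -0.02 over the 15 HIF pathway genes and -0.14 over the 24 glycolysis genes, beside 0.01 over all genes tested. The HIF pathway median was not stable, at -0.16 with DESeq2 and with no filter on low counts. The glycolysis median was -0.14 in both, so the medians of these groups did not keep their order. Those fits took in 17 HIF pathway genes, among them *CA9* and *CA12* with at most 4 counts in any library. *KDM3A*, which gave the median of the reported fit, stayed at -0.02 in both. Without CRE replicate 3 all of the 6 still fell, and *SLC2A1* (log2 fold change 0.22, adjusted p = 0.00984) and *PFKL* (-0.19, adjusted p = 0.0484) passed as well.

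**Figure D1:**
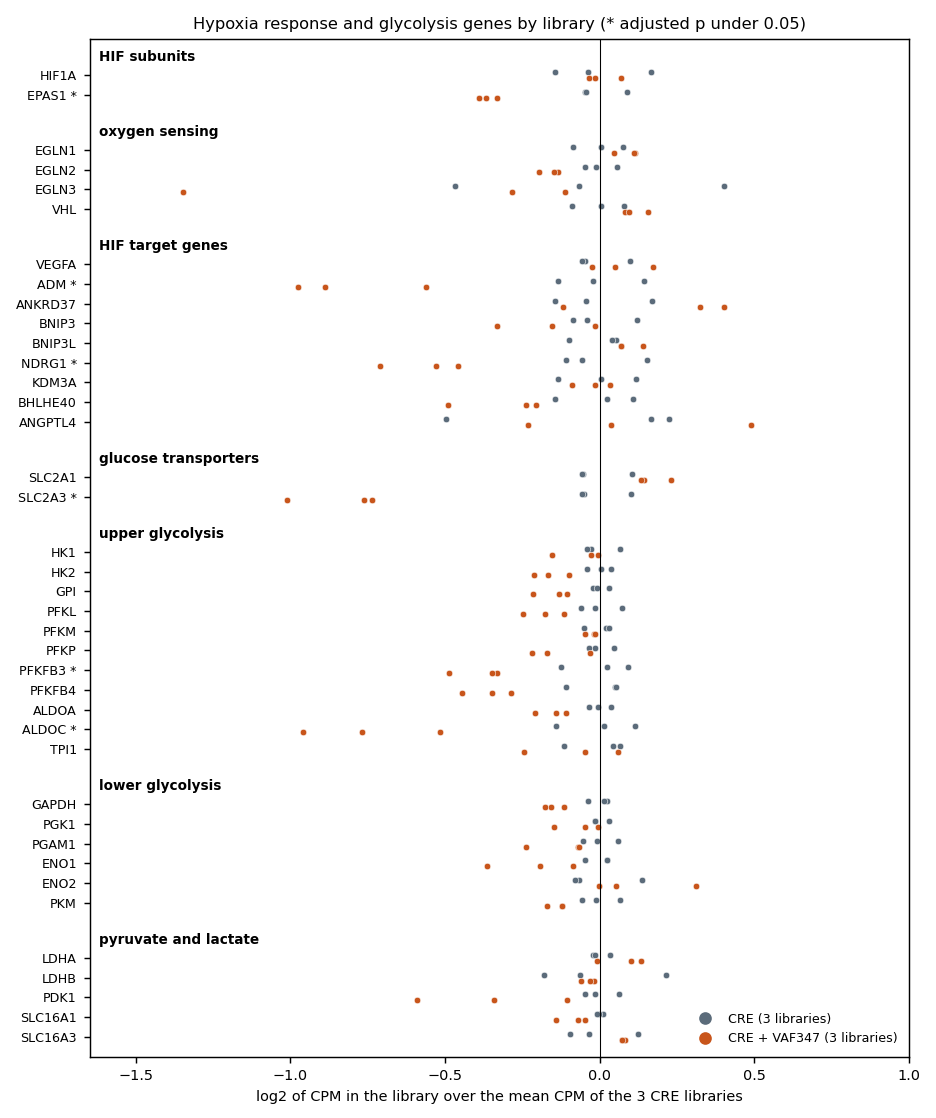
Each point is 1 library, placed on the x axis at the log2 of its CPM over the mean of the 3 CRE libraries, with CRE in grey and CRE + VAF347 in orange, and the 39 tested genes stand in rows grouped by role. The 6 genes marked with a star (adjusted p under 0.05) have all 3 orange points left of all grey points, and for most glycolytic enzymes the orange points lie only slightly left of the grey ones.

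Promoter sequences from RefSeq (GRCh38.p14) were at hand for 35 of the 41 genes, and for *EPAS1*, *ADM*, *PFKFB3* and *ALDOC* among those that fell. HIF with ARNT binds cores that read ACGTG or GCGTG, of which AhR with ARNT shares GCGTG. The 4 promoters of genes that fell are shown for these letters, and the common direction of their genes was fixed by that choice. *LDHA* and *PGK1*, textbook HIF targets that did not pass the test, are shown beside them. Each line gives the stretch within the 250 bases before the annotated start that lies outside annotated exons, 5′ to 3′ on the strand of the gene, with every ACGTG or GCGTG on either strand in capitals.
ADM, chr11:10304878-10305072, plus strand: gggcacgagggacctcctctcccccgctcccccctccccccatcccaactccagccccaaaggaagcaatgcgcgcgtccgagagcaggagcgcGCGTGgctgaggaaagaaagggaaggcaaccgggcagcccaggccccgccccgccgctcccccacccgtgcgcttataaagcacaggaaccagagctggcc
EPAS1, chr2:46297157-46297406, plus strand: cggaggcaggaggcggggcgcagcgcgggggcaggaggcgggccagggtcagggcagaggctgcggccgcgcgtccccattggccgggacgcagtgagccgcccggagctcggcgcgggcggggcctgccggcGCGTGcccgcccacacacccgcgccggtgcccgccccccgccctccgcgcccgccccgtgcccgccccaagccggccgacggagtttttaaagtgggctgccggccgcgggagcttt
PFKFB3, chr10:6144671-6144920, plus strand: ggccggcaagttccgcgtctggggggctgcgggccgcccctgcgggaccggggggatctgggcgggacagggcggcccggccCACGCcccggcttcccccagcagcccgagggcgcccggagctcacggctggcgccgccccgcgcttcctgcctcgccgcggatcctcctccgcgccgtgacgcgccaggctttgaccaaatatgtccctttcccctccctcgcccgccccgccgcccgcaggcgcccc
ALDOC, chr17:28576949-28577145, minus strand: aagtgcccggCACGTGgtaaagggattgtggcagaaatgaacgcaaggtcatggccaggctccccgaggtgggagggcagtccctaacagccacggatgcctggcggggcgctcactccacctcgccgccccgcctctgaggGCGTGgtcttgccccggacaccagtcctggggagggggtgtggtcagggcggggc
LDHA, chr11:18394313-18394559, plus strand: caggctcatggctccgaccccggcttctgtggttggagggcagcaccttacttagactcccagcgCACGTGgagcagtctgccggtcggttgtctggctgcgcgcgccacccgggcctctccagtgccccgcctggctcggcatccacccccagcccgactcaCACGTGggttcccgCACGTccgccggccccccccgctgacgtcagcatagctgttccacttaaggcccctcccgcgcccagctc
PGK1, chrX:78103998-78104247, plus strand: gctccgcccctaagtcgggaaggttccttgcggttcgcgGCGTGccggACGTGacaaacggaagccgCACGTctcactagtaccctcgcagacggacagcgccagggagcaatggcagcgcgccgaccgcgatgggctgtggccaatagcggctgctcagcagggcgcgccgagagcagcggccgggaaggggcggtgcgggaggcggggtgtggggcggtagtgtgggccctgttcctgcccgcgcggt
The *EPAS1* stretch precedes the RefSeq start, which lies inside the longer gene model of GENCODE. RefSeq listed more than 1 promoter for 13 members, and the first listed was used for every gene. Over the 250 bases before that start, searched on both strands, GCGTG was present in each of the 4 promoters of genes that fell and ACGTG in 1 of them, that of *ALDOC*. The other promoter listed for *PFKFB3* held GCGTG 0 times and ACGTG 2 times, and that of *LDHA* held GCGTG 1 time and ACGTG 0 times. The longer TGCGTG, which contains GCGTG and is typical of AhR with ARNT, was present in 0 of the 4, in 8.57% of the 35 members and in 10.6% of genes tested (7.88% of all). Over all 35 members ACGTG was present in 42.9% of the promoters and GCGTG in 37.1%. Among the 11115 promoters of genes tested, 23.3% held ACGTG and 45.5% held GCGTG, and over the whole RefSeq set of 27305 promoters the shares were 18.7% and 31.9%. *LDHA* held ACGTG 5 times, a count in which a palindromic CACGTG is found once on each strand, and GCGTG 0 times. *PGK1* held ACGTG 2 times and GCGTG 1 time. Of the other members that did not pass the test, *BNIP3* held GCGTG 4 times and *ENO1* 2 times. *HIF1A*, *HK2*, *KDM3A*, *PFKFB4* and *PFKL* held it as well, so GCGTG was not confined to the genes that fell. The letters alone mark no bound site, and binding was not measured in these libraries.

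Among the alpha subunits, *EPAS1* fell and *HIF1A* did not pass the test. *HIF1A*, on chromosome 14 of GRCh38 from 61695513 to 61748259, had 197, 182 and 226 CPM with CRE, given here and throughout in the order of the replicate numbers, and 199, 197 and 212 with VAF347. The groups overlapped, and the log2 fold change was 0.01 with a standard error (SE) of 0.08 and an adjusted p of 0.974. Its sign turned with the libraries used, from 0.10 without CRE replicate 3 to -0.06 without CRE replicate 2. It also turned with the fit when all libraries were kept. The value was -0.08 with an offset for transcript GC content and -0.03 by limma on log2(TPM + 1). *EPAS1*, on chromosome 2 from 46293667 to 46386697, had 378, 379 and 416 CPM with CRE and 311, 298 and 303 with VAF347. Every VAF347 library lay below every CRE library, and the log2 fold change was -0.36 (SE 0.06, adjusted p = 0.00617). On deposited TPM, which scales for transcript length, the alpha subunits were of like abundance in CRE libraries, at 120 ± 18.7 (SD, n = 3) for *HIF1A* and 113 ± 12.7 (SD, n = 3) for *EPAS1*. *EPAS1* made up 48.7%, 49.5% and 47.4% of their summed TPM with CRE and 43.4%, 42.3% and 41.2% with VAF347. These shares did not overlap between groups (two-sided exact permutation test p = 0.1, the smallest that 3 against 3 can give, 0.45 after Benjamini-Hochberg adjustment over 9 shares).

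None of the 4 oxygen sensing genes passed the test, with 1 at an unadjusted p under 0.05 and 0 by DESeq2. *EGLN1*, the main hydroxylase of HIF1A in oxygenated cells, had 67.7, 63.6 and 71.0 CPM with CRE and 73.0, 72.9 and 69.6 with VAF347. *EGLN2*, which overlaps the readthrough gene *RAB4B-EGLN2* on its strand, had 70.8, 65.8 and 67.5 CPM with CRE and 59.4, 61.9 and 61.4 with VAF347. Its groups did not overlap, but its log2 fold change of -0.16 (SE 0.06) had an adjusted p of 0.177. *EGLN3*, itself a hypoxia-induced gene, was scarce at 2.90, 5.30 and 3.83 CPM with CRE and 3.71, 1.58 and 3.29 with VAF347 (log2 fold change -0.49, SE 0.31, adjusted p = 0.403). *VHL* had a log2 fold change of 0.11 (SE 0.07, adjusted p = 0.383).

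Of a list of 17 partners and cofactors of HIF and AhR, 15 were tested, 1 fell and 0 rose. The share called was 6.67%, near the 5.42% of all genes. For the higher direction, 0 had an unadjusted p under 0.05, and DESeq2 called 0 in either direction. The shared partner *ARNT* had 47.5, 45.1 and 50.3 CPM with CRE and 47.6, 50.7 and 48.5 with VAF347, a log2 fold change of 0.04 (SE 0.07, adjusted p = 0.799). *AHR* itself had 44.4, 40.6 and 47.1 CPM with CRE and 47.9, 46.3 and 45.7 with VAF347. For both the partner and the receptor the groups overlapped. The gene that fell was *CITED2*, a hypoxia-induced protein that competes with HIF1A for the coactivators CREBBP and EP300. It had 38.0, 31.8 and 32.2 CPM with CRE and 26.6, 24.6 and 25.7 with VAF347 (log2 fold change -0.41, SE 0.09, adjusted p = 0.0265).

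Among the 11 HIF target genes outside glycolysis, 9 were tested, 2 fell, 7 did not pass and 0 rose. The share called was 22.2%, beside 5.42% of all genes. For the higher direction, 0 had an unadjusted p under 0.05 and DESeq2 called 0. *ADM*, on chromosome 11 from 10305073 to 10307397, encodes adrenomedullin, a secreted vasodilator peptide. It had 31.3, 37.9 and 33.8 CPM with CRE and 18.5, 23.2 and 17.5 with VAF347, so that the highest VAF347 library stood well under the lowest CRE library. Its log2 fold change was -0.80 (SE 0.12, adjusted p = 0.00283). *NDRG1*, on chromosome 8 from 133237175 to 133302022, encodes a cytoplasmic protein raised by hypoxia and by differentiation. It had 114, 118 and 136 CPM with CRE and 84.9, 89.1 and 74.8 with VAF347, without overlap, and a log2 fold change of -0.56 (SE 0.09, adjusted p = 0.00369). Without CRE replicate 3, its highest library, or without CRE + VAF347 replicate 3, its lowest, the log2 fold change was -0.48 and -0.4988, still past the test but short of 0.5.

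The other HIF targets gave no common direction. *VEGFA*, the vascular growth factor, had 48.8, 53.9 and 48.4 CPM with CRE and 52.1, 56.8 and 49.5 with VAF347 (log2 fold change 0.07, SE 0.08, adjusted p = 0.660). The mitophagy receptors *BNIP3* and *BNIP3L* had log2 fold changes of -0.16 (adjusted p = 0.324) and 0.09 (adjusted p = 0.429). *BNIP3* has 44 named pseudogenes, so its counts are less certain. *BHLHE40*, a transcriptional repressor of the circadian clock, did not overlap between groups, at 102, 115 and 122 CPM with CRE and 95.7, 97.8 and 80.2 with VAF347, but missed the threshold (log2 fold change -0.31, SE 0.09, adjusted p = 0.0693). It passed without CRE replicate 1, with an adjusted p of 0.0479. *KDM3A*, a histone demethylase, had a log2 fold change of -0.02 (adjusted p = 0.895). *ANKRD37* and the lipase inhibitor gene *ANGPTL4* were tested at no more than 2.42 and 1.30 CPM, with log2 fold changes of 0.22 (SE 0.26) and 0.15 (SE 0.36). The carbonic anhydrase genes *CA9* and *CA12*, which serve acid handling under hypoxia, had at most 4 counts in any library, near the floor of 3 counts, and were not tested.

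A wider list of 35 hypoxia-induced genes, of which 33 were tested, was mixed in direction, with 5 that fell and 2 that rose. The share called was 21.2%, beside 5.42% of all genes, 4.07% lower and 1.35% higher. DESeq2 called 3 of the list lower and 2 higher. *LOXL2*, a collagen cross-linking enzyme (log2 fold change -0.37), *TMEM45A* (-0.56), *PPP1R3B*, a glycogen-targeting subunit (-0.47), and the transcription factor gene *NFIL3* (-0.42) were among those that fell, with adjusted p of 0.0114 to 0.0355. *STC2*, a secreted glycoprotein also raised by endoplasmic reticulum stress, rose from 75.1 ± 4.56 to 120 ± 2.03 CPM (SD, n = 3 each), a log2 fold change of 0.68 (adjusted p = 0.000179). *CITED4*, a relative of *CITED2*, rose from 29.5 ± 1.17 to 47.5 ± 3.45 CPM (SD, n = 3 each), also a log2 fold change of 0.68. The median log2 fold change of the 33 genes was -0.10.

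Of the glucose transporter genes, *SLC2A3* fell and *SLC2A1* did not pass the test. *SLC2A3*, on chromosome 12 from 7919230 to 8019007, encodes GLUT3, a transporter of high glucose affinity. It had 35.2, 39.0 and 35.0 CPM with CRE and 21.5, 21.9 and 18.1 with VAF347, and fell by 0.83 on the log2 scale (SE 0.10, adjusted p = 0.000639). Its close paralog *SLC2A14* had no more than 3 counts in any library. *SLC2A1*, on chromosome 1 from 42925353 to 42958893, encodes GLUT1, the main transporter of epithelial cell lines. It had 275, 274 and 306 CPM with CRE and 334, 315 and 312 with VAF347. These groups did not overlap, but the log2 fold change of 0.17 (SE 0.07) had an adjusted p of 0.168. On TPM, *SLC2A1* made up 91.6%, 90.7% and 91.5% of the summed transcripts of the pair with CRE and 95.9%, 95.4% and 96.2% with VAF347. The shares did not overlap (exact permutation test p = 0.1, the smallest possible, 0.45 after Benjamini-Hochberg adjustment over 9 shares).

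**Figure D2:**
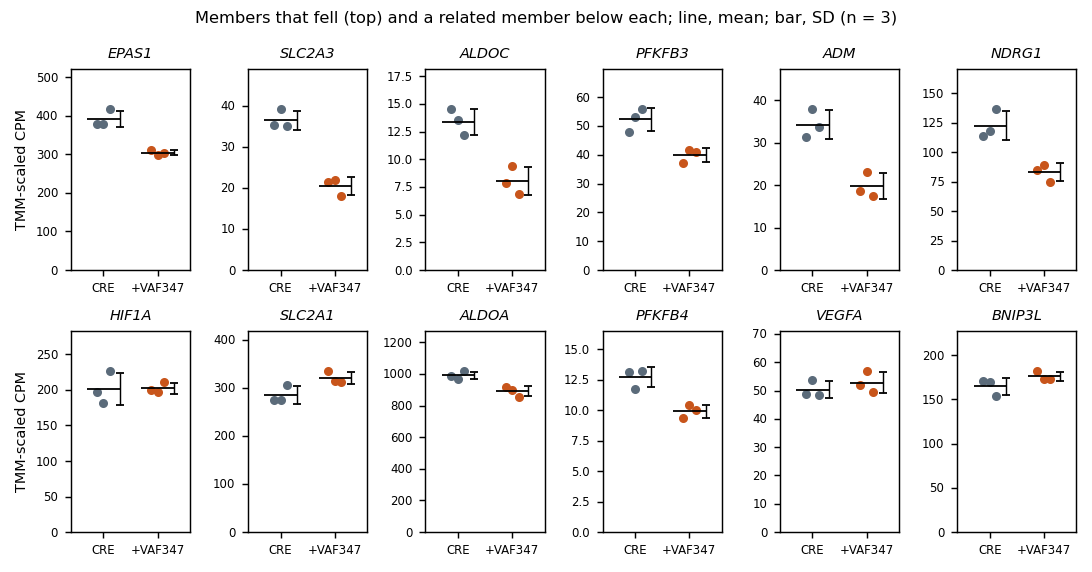
Each panel shows the TMM-scaled CPM of a gene in the 3 CRE (grey) and 3 CRE + VAF347 (orange) libraries on an axis from 0, with the mean as a line and the SD as a bar. In the upper row are the 6 genes that fell, all without overlap between groups. Below each stands a gene of the same role, picked from those that did not pass the test. An example is *HIF1A* at 202 and 203 CPM under *EPAS1*.

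Of the 11 genes of upper glycolysis, which carry glucose to the triose phosphates, 2 fell, 9 did not pass and 0 rose, with 0 higher at an unadjusted p under 0.05 and 0 higher by DESeq2. The share called was 18.2%, beside 5.42% of all genes. All 11 had a log2 fold change below 0, beside 47.9% of all genes tested. *PFKFB3*, on chromosome 10 from 6144934 to 6254644, makes fructose 2,6-bisphosphate, the strongest activator of phosphofructokinase. It had 47.9, 53.1 and 55.7 CPM with CRE and 37.3, 41.5 and 41.004 with VAF347, without overlap (log2 fold change -0.39, SE 0.08, adjusted p = 0.0183). It kept its call without CRE replicate 1 (-0.44, adjusted p = 0.0154) and without CRE replicate 3 (-0.34, adjusted p = 0.0118). It lost the call without CRE replicate 2 (-0.38, adjusted p = 0.0629) and without CRE + VAF347 replicate 1 (-0.35, 0.0814), 2 (-0.42, 0.0566) or 3 (-0.41, 0.0623). *ALDOC*, on chromosome 17 from 28573115 to 28576948, encodes the aldolase best known from brain. It had 14.5, 13.5 and 12.2 CPM with CRE and 7.87, 9.36 and 6.88 with VAF347 (log2 fold change -0.74, SE 0.14, adjusted p = 0.0112). Without CRE + VAF347 replicate 1 or 3 its adjusted p was 0.0550 and 0.0665. *ALDOC* overlaps *RSKR* on its strand, which had 111, 150 and 121 counts with CRE and 127, 162 and 161 with VAF347.

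The related regulator *PFKFB4* did not overlap between groups either, at 13.1, 11.8 and 13.2 CPM with CRE and 9.33, 10.4 and 9.98 with VAF347, but did not pass the test (adjusted p = 0.1001). The hexokinases *HK1* and *HK2*, which trap glucose in the cell, had log2 fold changes of -0.06 (adjusted p = 0.627) and -0.16 (adjusted p = 0.165). *GPI* (-0.15) and the phosphofructokinase subunits *PFKL* (-0.18), *PFKM* (-0.03) and *PFKP* (-0.14) had adjusted p of 0.130 to 0.842. *ALDOA*, the abundant aldolase, had 987, 968 and 1016 CPM with CRE and 918, 898 and 857 with VAF347, a log2 fold change of -0.15 (SE 0.06, adjusted p = 0.164). *TPI1*, the triose isomerase, had 858, 871 and 767 CPM with CRE and 867, 805 and 703 with VAF347, with overlap.

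None of the 6 genes of lower glycolysis, which earn ATP and end in pyruvate, passed the test, with 3 lower at an unadjusted p under 0.05 and 0 called by DESeq2. *GAPDH*, on chromosome 12 from 6534512 to 6538374, was the most abundant member. It had 2902, 2785 and 2882 CPM with CRE and 2634, 2559 and 2528 with VAF347, and the log2 fold change was -0.15 (SE 0.06, adjusted p = 0.157). *GAPDH* has 65 named pseudogenes, and it serves as a reference gene in many RT-PCR assays. *ENO1*, an enolase, had 1539, 1466 and 1540 CPM with CRE and 1426, 1326 and 1176 with VAF347 (log2 fold change -0.21, adjusted p = 0.131). *PKM*, the pyruvate kinase, had 1875, 1722 and 1775 CPM with CRE and 1645, 1590 and 1646 with VAF347 (log2 fold change -0.14, adjusted p = 0.211). For *GAPDH*, *ENO1*, *PKM* and *PGAM1* the groups did not overlap, while for *PGK1* and *ENO2* they did. *ENO2*, the neuronal enolase, had the only positive value of the 6, 0.13 (SE 0.10).

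None of the 5 pyruvate and lactate genes passed, with 1 lower at an unadjusted p under 0.05 and 0 called by DESeq2. *LDHA*, which turns pyruvate into lactate, had 784, 754 and 758 CPM with CRE and 840, 821 and 760 with VAF347, and *LDHB* had a log2 fold change of -0.04 (adjusted p = 0.854). The lactate transporters *SLC16A1* and *SLC16A3* had log2 fold changes of -0.09 and 0.08, with adjusted p of 0.426 and 0.562. *PDK1*, the kinase that holds pyruvate back from mitochondria, had 20.9, 22.6 and 21.4 CPM with CRE and 17.1, 20.1 and 14.4 with VAF347, without overlap but with an adjusted p of 0.137. In a list of 28 genes of mitochondrial pyruvate use and the TCA cycle, 1 rose and 0 fell. The share called was 3.57%, beside 5.42% of all genes. At an unadjusted p under 0.05 were 7 higher and 2 lower, and DESeq2 called 0 in either direction. The gene that rose was *MPC1*, a subunit of the mitochondrial pyruvate carrier, from 19.2 ± 1.58 to 24.9 ± 0.69 CPM (SD, n = 3 each). Of 21 other isoforms and regulators of glycolysis, 10 were tested, 1 fell and 0 rose, a share of 10% beside 5.42% of all genes. For the higher direction, 1 had an unadjusted p under 0.05 and DESeq2 called 0. The gene that fell was *BPGM*, which makes 2,3-bisphosphoglycerate from a glycolytic intermediate (52.1, 52.5 and 51.8 CPM with CRE, 35.6, 34.9 and 24.4 with VAF347, adjusted p = 0.00545). Of 6 gluconeogenesis genes, 3 were tested and 0 were called, with 0 at an unadjusted p under 0.05 and 0 by DESeq2.

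The fold changes also went with base composition over all genes. Transcripts of the glycolysis genes had a median GC content of 55.6%, beside 49.6% over all genes with a mean log2 CPM over 3 and 50.3% for the HIF pathway genes. Spearman's rho of log2 fold change with GC content was -0.35 across those 11110 genes, which share the same libraries and are no replicates of each other. With a GC offset for each library the median of the glycolysis genes was -0.09 in place of -0.14. All of the 6 genes that fell kept an adjusted p under 0.05 with that offset. The alpha subunits lay apart in GC content, at 39.3% for *HIF1A* and 57.2% for *EPAS1*. Their log2 fold changes with the offset were -0.08 and -0.32, in place of 0.01 and -0.36, and so lay closer together. The part of GC content in the *EPAS1* share of TPM was not tested.

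Levels between genes were compared on deposited TPM. *GAPDH*, *ENO1*, *PKM*, *ALDOA* and *TPI1* exceeded 1000 TPM on average in CRE libraries, at 3443 ± 215, 1406 ± 131, 1262 ± 123, 1148 ± 285 and 1057 ± 31.8 (SD, n = 3 each). *LDHA* followed with 912 ± 124 TPM (SD, n = 3). From *ENO1* down to *LDHA* the range of each gene over the CRE libraries overlapped that of the next in this order. Within each CRE library *GAPDH* stood above *ENO1*, *ENO1* above *PKM* and *TPI1* above *LDHA*. The spread of *ALDOA* came with CRE replicate 3, at 1476 TPM beside 984 and 982 in the other CRE libraries, where its CPM were 1016, 987 and 968. Of the genes that fell, *EPAS1* was the most abundant, and *ADM* (37.7 ± 3.19), *SLC2A3* (20.6 ± 0.84), *PFKFB3* (18.6 ± 3.24) and *ALDOC* (15.7 ± 2.73) lay far below the enzymes that carry most glycolytic transcripts. The summed TPM of the 24 glycolysis genes was 11349, 10985 and 12941 with CRE and 10899, 10678 and 10435 with VAF347. The lowest CRE value lay close to the highest VAF347 value, and CRE replicate 3 lay above all others.

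**Figure D3:**
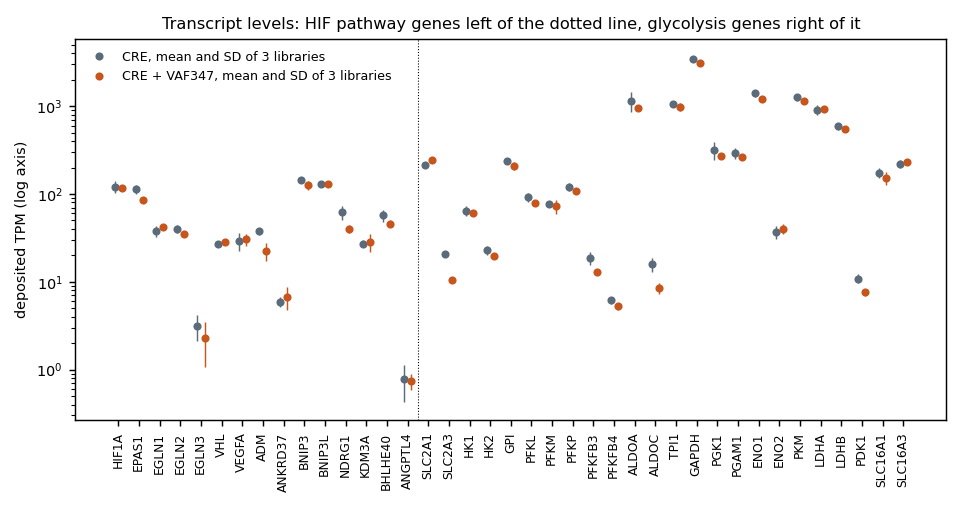
Mean deposited TPM (log axis) of the 39 tested genes with CRE (grey) and CRE + VAF347 (orange), with the SD of 3 libraries as bars. The most abundant enzymes, led by *GAPDH* at 3443 TPM with CRE, have nearly level pairs of points, and the pairs of *ADM*, *SLC2A3* and *ALDOC* stand apart.

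Within enzyme families, the other 7 shares tested overlapped between groups. *LDHA* made up 60.6 ± 3.88% of the *LDHA* and *LDHB* transcripts with CRE and 62.7 ± 0.86% with VAF347 (SD, n = 3 each). *HK2* made up 26.3 ± 0.45% of both hexokinases with CRE and 24.8 ± 1.75% with VAF347 (SD, n = 3 each). *ALDOC* was 1.42 ± 0.49% of the aldolase transcripts with CRE and 0.87 ± 0.11% with VAF347 (SD, n = 3 each), with an exact permutation p of 0.2.

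On TPM in place of counts, the 6 fold changes kept their direction, but limma on log2(TPM + 1) called only *SLC2A3* among them. The fold changes on that scale were -0.39 for *EPAS1*, -0.74 for *ADM*, -0.60 for *NDRG1*, -0.47 for *PFKFB3* and -0.82 for *ALDOC*, with adjusted p of 0.0678 to 0.245. Over all genes that test called 87 where edgeR called 833. CRE replicate 3, whose 41 genes summed to 13872 TPM beside 12137 and 11777 in the other CRE libraries, stood highest on TPM, and its part in the lost calls was not tested.

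**Figure D4:**
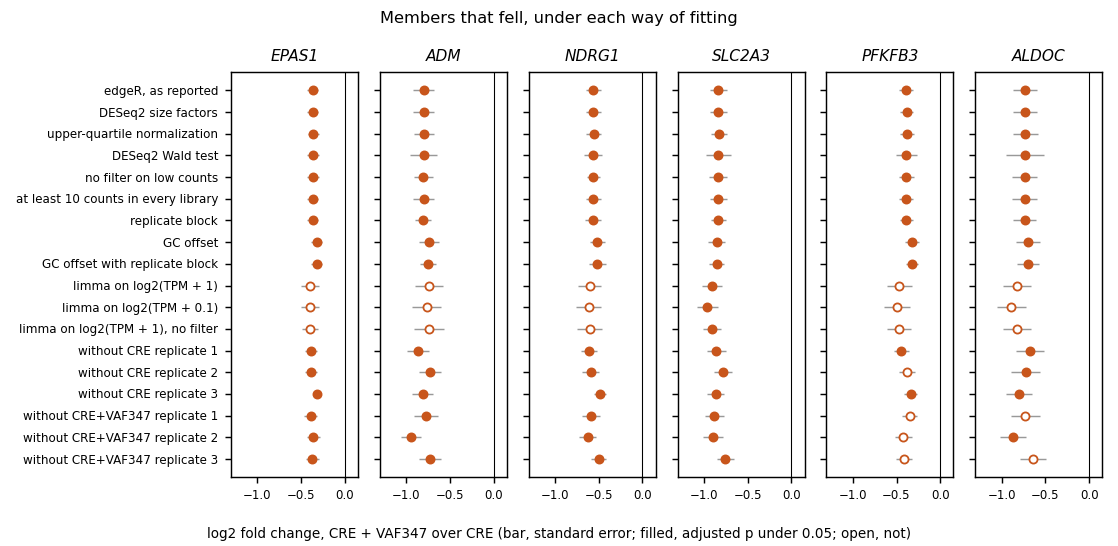
For each of the 6 genes that fell, the log2 fold change and its standard error are drawn on the x axis under the fit as reported and 17 other fits, 1 per row, filled where the adjusted p was under 0.05. Every point lies left of 0, *SLC2A3* is filled in all rows, and the open points lie in the TPM rows and, for *PFKFB3* and *ALDOC*, in rows that leave out a library.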

How the data were processed

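RNA-seq of 6 HBEC libraries was analysed, 3 with CRE and 3 with CRE + VAF347, each named by the labels of its table column. The authors deposited expected counts and TPM values per gene symbol, both estimated with Salmon from paired-end poly(A) libraries, with hg38 in the submitters' processing notes. The deposited TPM sum to 1000000 in each library. The Salmon version, annotation and use of strand are not given in the sources used here, so overlapping, antisense and paralogous genes are less certain. The other deposited table, which holds the authors' own comparison (mean counts, fold changes and p-values), was not used. All 61228 gene names were found in GENCODE v44, which gave positions on GRCh38.

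Expected counts were rounded (14.5% were not whole to a tolerance of 1e-06) and tested with edgeR 4.0.16 under R 4.3.3 (low counts removed by filterByExpr, TMM scaling, quasi-likelihood test, Benjamini-Hochberg adjustment over all genes tested). CPM are TMM-scaled. The standard error is the log2 fold change over the square root of F. Alternatives were DESeq2 1.42.0, limma 3.58.1 on TPM with a pseudocount of 1 or 0.1 and a minimum mean TPM of 1 or none, other normalizations and count filters, a GC offset, a replicate block, and each library left out. Isoform shares were compared with exact permutation tests in scipy 1.17.1. Groups of 3 libraries limit the precision, and counting limits that of genes near the floor of 3 counts.

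On simulated counts for this comparison, over 15149 genes, edgeR recovered 77 of 100 genes changed by 0.5 and 99 of 100 changed by 1 on the log2 scale, with 12 calls among unchanged genes. The members and lists were chosen with earlier results of these data known. Every member is accounted for. Values in every library are given for members past the test, the alpha subunits, the EGLN genes and the 5 most abundant members. Of the other lists, the genes past the test, *ARNT* and *AHR* are named, except 1 gene that is not reported here.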

Additional observations from a re-analysis of the deposited data

How the results depend on the processing

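The 6 genes that fell kept an adjusted p under 0.05 with DESeq2 size factors, upper-quartile normalization, DESeq2's Wald test, no filter on low counts, at least 10 counts in every library, the replicate block, the GC offset, and both of the last together. Their direction held in all 17 alternatives. Limma on log2(TPM + 1), on log2(TPM + 0.1), and on log2(TPM + 1) without a filter called 0 lower HIF pathway genes in place of 3 and 1 lower glycolysis gene in place of 3, and left 1 member past both thresholds in place of 4. Over all genes, those fits called 87, 85 and 32 in place of 833, and 84, 84 and 32 past both thresholds in place of 340. The split of calls moved with them, from 24.8% higher to 39.1%, 37.6% and 62.5%. No filter on low counts called 1586 genes, 598 past both thresholds, and added *BHLHE40* and *ENO1*, and the GC offset with the replicate block called 542. The cause was not tested.

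The median of the HIF pathway genes, -0.02, was -0.16 with DESeq2 and -0.16 with no filter, fits that also take in *CA9* and *CA12*. It was -0.091 with at least 10 counts in every library, -0.080 with the GC offset, -0.075 with that and the block, and -0.11, -0.11 and -0.053 in the 3 limma fits. The median of the glycolysis genes, -0.14, was -0.094 with the GC offset, -0.094 with that and the block, and -0.17 in each limma fit. On CPM, the *SLC2A1* share was higher with VAF347 by 5.37 percentage points in place of 4.60.

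When each library was left out, the genes called numbered 305 to 1287, the least when CRE + VAF347 replicate 3 was omitted and the most when CRE replicate 3 was, and those past both thresholds from 201 to 380. Lower HIF pathway genes ran from 3 to 4, lower glycolysis genes from 1 to 4, higher glycolysis genes from 0 to 1, and members past both thresholds from 2 to 4. Medians ran from -0.086 to -0.022 (HIF pathway) and from -0.16 to -0.13 (glycolysis). Replicates with the same number deviated together only weakly, with correlations of 0.05 to 0.10, though each library correlated best with its own number. The replicate block called 726 genes, 3 lower HIF pathway genes and 3 lower glycolysis genes, with medians of -0.02 and -0.14.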
